A study of Mus musculus with 6 samples.

Results

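The 69 translation initiation factor genes described here were all genes whose symbol begins with Eif1 to Eif6, with the Eif2ak kinases left out, among 22105 genes with an identifier in the deposited table. They were read in 4T1 cells, a mouse mammary carcinoma line, treated for 24 h either with nanoparticles named CM-PEG-PLGA@DOX/R848 or with phosphate-buffered saline (PBS), 3 libraries in each group. The particles carried doxorubicin (DOX), a DNA intercalator and topoisomerase II poison, at a dose equivalent to 2 µg/mL, and R848 (resiquimod), an agonist of the endosomal receptor TLR7. Both groups came from the same cell line, with no genetic change named in the labels; neither drug alone nor an unloaded carrier is analysed here, so the parts of the particle cannot be told apart. Levels are FPKM, fragments scaled to transcript length and library size, so they are corrected for length and can be set beside each other between genes.

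Translation initiation is the step that loads a ribosome onto an mRNA. The eIF2 complex carries the initiator tRNA to the small ribosomal subunit, eIF3 and the small factors eIF1 and eIF1A hold that subunit open for scanning, and eIF4F (the cap-binding eIF4E, the scaffold eIF4G and the helicase eIF4A) brings it to the capped 5′ end. In tumour cells the pathway is known for its control by MYC, by mTORC1 through the eIF4E-binding proteins, and by stress kinases that phosphorylate eIF2.

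More initiation factor mRNAs were higher than lower after the nanoparticles, but in several complexes subunits moved in opposite directions. With the trend of all tested genes with genomic span subtracted (given below), 22 members were higher and 14 lower, against 32 and 12 without this step. Eif2b3, Eif4g3 and Eif5b were then no longer called lower. Several rises were lost, and Eif1, Eif3f, Eif4a1 and Eif4h turned from higher to lower. Of 47 members tested, 32 were higher, 12 were lower and 3 did not pass (limma adjusted p under 0.05 over all tested genes). Across all 10863 tested genes 86.4% passed, 40.5% as higher and 46.0% as lower, so passing the test by itself set few genes apart. Of the tested members, 68.1% were higher and 25.5% lower. Counts of each complex below are to be read against the all-gene shares of 40.5% higher and 46.0% lower. Libraries of the groups did not overlap for 31 members that were higher and 12 that were lower, against 40.8% and 46.4% of all tested genes, or 87.2% in either direction. Fold changes are log2 differences on the log2(FPKM + 1) scale, nanoparticle minus PBS. The median was 0.24 over the tested members and -0.06 over all tested genes. Sizes were moderate: 4 members rose at least 2-fold and 4 fell at least 2-fold, against 10.2% and 13.5% of all tested genes. Eif1ad (1.66), Eif2b1 (1.46), Eif3b (1.22) and Eif5a (1.07) were the 4 that rose this far, and Eif4b (-1.51), Eif4g3 (-1.39), Eif3e (-1.21) and Eif4ebp1 (-1.15) were the 4 that fell. Summed over all 69 members, the level was 5535 to 5555 FPKM in the nanoparticle libraries and 4847 to 4914 FPKM in the PBS libraries. As a share of each library's summed FPKM this was 1.18% to 1.19% in nanoparticle and 1.16% to 1.17% in PBS libraries. In bulk RNA, fewer cells with a transcript and less of it per cell cannot be told apart.

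The scale mattered for the small rises. The summed FPKM was 468387 to 472870 in nanoparticle libraries and 421544 to 425231 in PBS libraries, and rescaling each library to the same sum (the TPM scale) shifted the median of all tested genes by -0.15. On that scale 24 members were higher and 15 lower, with a member median of 0.10 and an all-gene median of -0.21. Of the 32 rises, 24 kept their call and direction in every alternative fixed with the design, and all 12 falls did.

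The remaining 22 members did not reach 1 FPKM in 3 libraries and were not tested; their highest single value was 0.527 FPKM. They were 16 numbered Eif1ad copies, Eif2s3y, Eif4a3l1, Eif4a3l2, Eif4e1b, Eif4e3 and Eif4ebp3. Eif1ad18 and Eif2s3y, the Y-linked copy of the eIF2 gamma subunit, were listed at 0 in all 6 libraries. Eif4e3, an eIF4E relative, had 0.128, 0.156 and 0.265 FPKM in the nanoparticle libraries and was listed at 0 in the PBS libraries. Values above 0 were more common in one group for the whole table, with 18319 to 18509 genes above 0 in each nanoparticle library and 13544 to 13808 in each PBS library. The part of this difference in values near 0, such as those of Eif4e3 and of most leukocyte markers, was not tested.

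**Figure D1:**
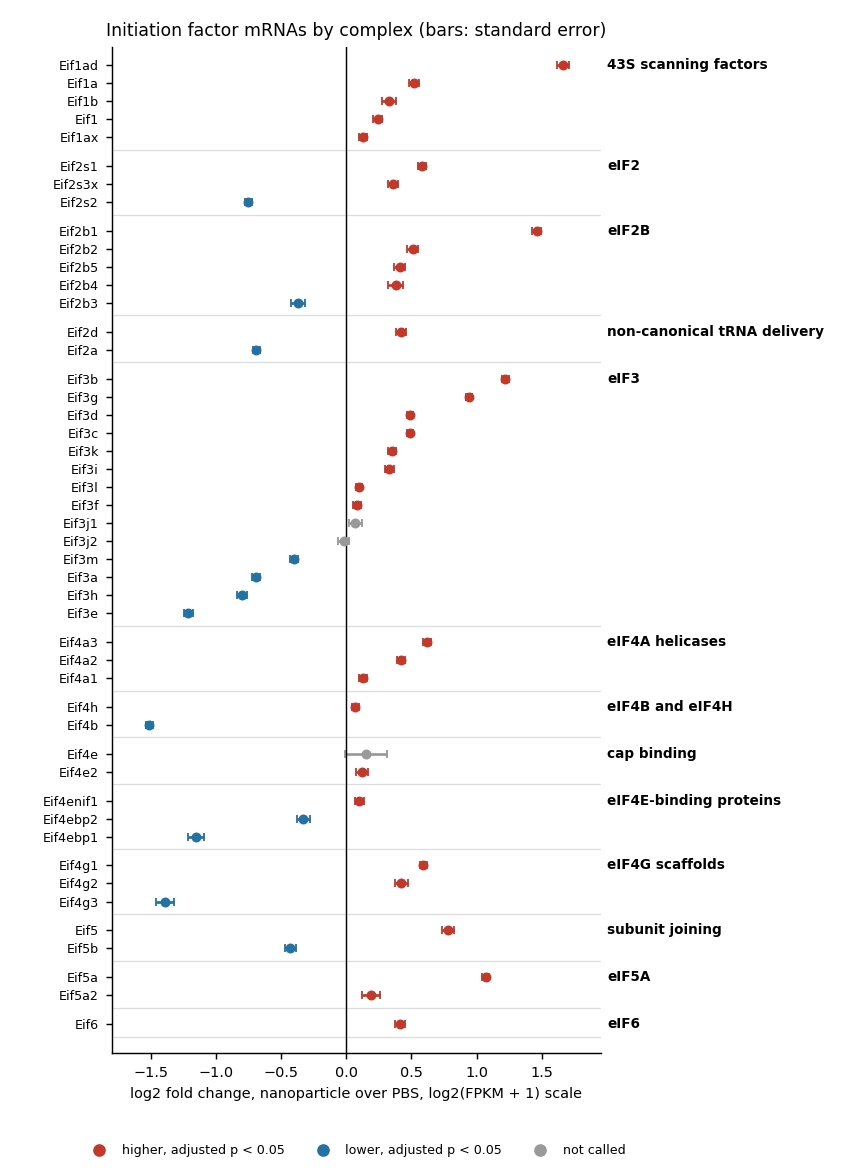
Log2 fold change of each of the 47 tested initiation factor mRNAs (x axis, nanoparticle over PBS on the log2(FPKM + 1) scale), grouped by complex, with bars for the standard error. Red points were higher, blue points lower and grey points did not pass; eIF2, eIF2B, eIF3, eIF4G and the eIF4E-binding proteins each hold points on both sides of 0.

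The simple epithelial keratins Krt8 and Krt18 were abundant in both groups. Krt8 stood at 342 to 343 FPKM in nanoparticle and 212 to 216 FPKM in PBS libraries. Krt18 stood at 667 to 710 FPKM in nanoparticle and 510 to 521 FPKM in PBS libraries. Krt19, another such keratin, was low, at 1.85 to 2.01 FPKM in nanoparticle and 1.08 to 1.33 FPKM in PBS libraries. The adhesion gene Cdh1 had 22.6 to 22.7 FPKM in nanoparticle and 17.9 to 20.1 FPKM in PBS libraries, while Epcam and Cldn7 stayed under 1 FPKM in all 6 libraries. Of 6 leukocyte markers, 1 (Csf1r) reached 1 FPKM, and their summed level was 1.89 to 2.89 FPKM in nanoparticle and 0.0676 to 0.165 FPKM in PBS libraries. The fibroblast markers summed to 4.47 to 5.25 FPKM in nanoparticle and 20.4 to 20.8 FPKM in PBS libraries, nearly all Pdgfra. The endothelial markers summed to 1.74 to 1.99 FPKM in nanoparticle and 8.36 to 8.54 FPKM in PBS libraries, mostly Cdh5. Their part in the initiation factor values was not tested. Cdkn1a, which encodes p21, had 72.5 to 78.5 FPKM in nanoparticle and 5.22 to 5.58 FPKM in PBS libraries. Across genes, Pearson's r of log2(FPKM + 1) ran from 0.8617 to 0.8649 for libraries of different groups and from 0.9956 to 0.9969 for libraries of the same group. The labels do not state whether replicates are independent cultures; the p-values reflect the variation among these libraries, which may be technical.

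Promoter windows of 8 members are shown because they hold the sequence features searched for, or none of them, in genes that rose and in genes that fell. They run from 100 bases before to 20 bases after the transcript start (RefSeq, GRCm38.p6, 5′ to 3′ on the gene's strand). Capitals mark any of CACGTG (the E-box bound by MYC and MAX, among others), CCGGAAGT (the ETS site), GGGCGG (the SP1 GC box), TGATGNAA (a C/EBP-ATF half-site), all on either strand, and the longest run of at least 8 bases of only C and T on the transcript strand within 20 bases of the start. Such a run at the start is known from TOP mRNAs, a class of translation machinery transcripts under mTORC1 control. Eif4g1, Eif1b, Eif3f, Eif3d and Eif2s3x rose, Eif3m, Eif2s2 and Eif4b fell.
Eif4g1, chr16:20672627-20672746, + strand: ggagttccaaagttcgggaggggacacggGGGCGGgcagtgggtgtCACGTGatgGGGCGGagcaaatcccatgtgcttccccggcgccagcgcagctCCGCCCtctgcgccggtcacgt
Eif1b, chr9:120492506-120492625, + strand: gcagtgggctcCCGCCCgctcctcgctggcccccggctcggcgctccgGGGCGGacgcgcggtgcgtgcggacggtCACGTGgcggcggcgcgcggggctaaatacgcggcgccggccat
Eif3f, chr7:108934315-108934434, + strand: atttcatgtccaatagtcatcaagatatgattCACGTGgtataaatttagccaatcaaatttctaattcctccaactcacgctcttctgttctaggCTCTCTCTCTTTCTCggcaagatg
Eif3d, chr15:77970805-77970924, - strand: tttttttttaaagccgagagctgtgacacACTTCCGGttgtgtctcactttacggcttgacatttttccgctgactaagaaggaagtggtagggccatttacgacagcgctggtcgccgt
Eif2s3x, chrX:94212632-94212751, - strand: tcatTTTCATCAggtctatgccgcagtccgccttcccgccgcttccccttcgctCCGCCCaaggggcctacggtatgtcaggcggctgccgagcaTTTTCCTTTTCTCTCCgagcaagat
Eif3m, chr2:105017008-105017127, - strand: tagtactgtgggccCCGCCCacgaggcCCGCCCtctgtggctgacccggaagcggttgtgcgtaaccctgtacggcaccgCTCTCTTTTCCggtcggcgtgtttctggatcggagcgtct
Eif2s2, chr2:154892887-154893006, - strand: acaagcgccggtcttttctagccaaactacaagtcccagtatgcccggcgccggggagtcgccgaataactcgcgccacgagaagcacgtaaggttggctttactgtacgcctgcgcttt
Eif4b, chr15:102073673-102073792, + strand: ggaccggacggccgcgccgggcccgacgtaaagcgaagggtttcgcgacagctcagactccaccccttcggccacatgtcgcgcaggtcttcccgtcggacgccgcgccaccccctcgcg
The E-box begins 54 bases before the start in Eif4g1, 24 in Eif1b and 68 in Eif3f, and the ETS site 71 bases before it in Eif3d. Runs of C and T are 15 bases long in Eif3f, 16 in Eif2s3x and 11 in Eif3m, with first bases at -4, -5 and -20 from the start. The Eif3m run thus ends before the annotated start and is not part of the transcript as annotated. The printed windows of Eif2s2 and Eif4b hold none of these matches. Eif4b does hold GGGCGG outside the printed bases, in the longer window counted below.

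A window was on file for 38 of the 47 tested members; Eif1a, Eif2b3, Eif3e, Eif3h, Eif3i, Eif3j2, Eif4ebp1, Eif4g2 and Eif6 had none. Over the whole window of 250 bases before to 50 after a start, and counting any annotated start, CACGTG occurred in 8 of 28 higher members, in 1 of 8 lower members (Eif3a) and in 8.09% of 27025 genes with a window. CCGGAAGT occurred in 7 of 28, 0 of 8 and 4.31%, and GGGCGG in 24 of 28, 5 of 8 and 38.2%. TGATGNAA occurred in 1 of 28 (Eif2s3x), 0 of 8 and 4.51%. The palindrome TGACGTCA was found in no member with a window that was called, against 2.03% of genes, and the NRF1 palindrome in 1 of 28 (Eif3k), 0 of 8 and 1.07%. A C and T run of at least 8 bases lay near the start in 6 of 28, 1 of 8 and 18.4%. The 27025 genes include genes that were not tested here, while all members counted were tested. Shares over tested genes alone were not computed, so a difference from these percentages cannot be credited to the members. A match describes letters in a window and says nothing of binding.

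The 5 tested factors of scanning and start codon choice were all called higher. With the trend with genomic span subtracted, Eif1 was called lower (-0.10), and Eif1b (-0.0005) and Eif1ax (-0.04) were not called. Eif1a and Eif1ad stayed higher. Eif1, whose product holds the scanning small subunit open and guards start codon choice, had 554, 585 and 590 FPKM in the nanoparticle libraries and 496, 475 and 495 FPKM in the PBS libraries (log2 fold change 0.24, standard error 0.032, limma adjusted p = 6.21e-05). All nanoparticle values lay above all PBS values, but the rise was small beside the level, and 31.6% of the 50-base words of its transcript also occur in transcripts of other genes. Eif1a, the autosomal eIF1A gene, had 70.2, 76.8 and 76 FPKM with nanoparticles against 51.9, 50.5 and 52.5 FPKM with PBS, a log2 fold change of 0.52. Its X-linked relative Eif1ax changed by 0.13, a call that was lost on the TPM scale (-0.02). Eif1b, a close relative of Eif1, had 20.4, 19 and 19.1 FPKM with nanoparticles against 14.7, 14.7 and 16.6 FPKM with PBS (0.33).

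Eif1ad, which encodes a protein with an eIF1A-like domain, had the largest log2 fold change of the members. It had 20.6, 20.9 and 20.9 FPKM in the nanoparticle libraries and 5.59, 5.93 and 6.22 FPKM in the PBS libraries, a fold of 3.52 between the means (log2 fold change 1.66, standard error 0.047, limma adjusted p = 9.61e-10). The groups lay far apart, with little spread inside either. The gene (ENSMUSG00000024841) lies at chr19:5366741-5371526 on the + strand of GRCm38.

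The 3 subunits of eIF2, which delivers the initiator tRNA as a complex with GTP, did not move together. Eif2s1, the alpha subunit that stress kinases phosphorylate, had 60.3, 59.9 and 60.6 FPKM with nanoparticles against 39.2, 40.5 and 39.9 FPKM with PBS (log2 fold change 0.58, standard error 0.028, limma adjusted p = 2.82e-08). Eif2s3x, the gamma subunit that binds GTP and the tRNA, had 66.8, 62.3 and 64.9 FPKM with nanoparticles against 48.2, 51.9 and 50 FPKM with PBS, and rose by 0.36. Eif2s2, the beta subunit (ENSMUSG00000074656, chr2:154871410-154892935, - strand), went the other way. It had 78, 76.3 and 76.4 FPKM with nanoparticles and 131, 128 and 132 FPKM with PBS (log2 fold change -0.75, standard error 0.025, limma adjusted p = 2.41e-09). The beta mRNA was therefore 1.26 to 1.29 times the alpha mRNA in the nanoparticle libraries and 3.17 to 3.34 times in the PBS libraries. Reads of these genes may fit other genes too: 27.8% of the 50-base words of the Eif2s2 transcript and 36.2% of those of Eif2s3x also occur in transcripts of other genes in GENCODE M21.

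Of the 5 subunits of eIF2B, the exchange factor that reloads eIF2 with GTP, 4 rose and 1 fell. Eif2b1, the regulatory alpha subunit (ENSMUSG00000029388, chr5:124570213-124579131, - strand), had 37.9, 36.9 and 38.5 FPKM with nanoparticles against 13.1, 13.4 and 12.9 FPKM with PBS. This was a fold of 2.88 between the means (log2 fold change 1.46, standard error 0.035, limma adjusted p = 3.74e-10), and the values within a group were close to each other. The regulatory beta subunit Eif2b2 had 48, 47.8 and 44.8 FPKM with nanoparticles against 32.8, 31.1 and 34.1 FPKM with PBS, a log2 fold change of 0.51. The catalytic epsilon subunit Eif2b5 had 32.3, 31.3 and 31 FPKM with nanoparticles against 24.4, 22.1 and 23.9 FPKM with PBS (0.41), and the delta subunit Eif2b4 rose by 0.38. With the trend with genomic span subtracted, Eif2b4 was at 0.04 and not called. Eif2b3, the gamma subunit that pairs with epsilon, had 9.1, 8.77 and 8.63 FPKM with nanoparticles and 12.4, 11 and 11.7 FPKM with PBS (-0.37). With the span trend subtracted, Eif2b3 was at 0.15 and called higher, so the fall in this complex depended on that setting. The alpha subunit was near the level of Eif2b4 and Eif2b3 in PBS libraries and above every eIF2B subunit except Eif2b2 in nanoparticle libraries.

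Factors that can bring tRNA to the ribosome without eIF2 also split. Eif2a, which encodes eIF2A and is no subunit of eIF2, had 41.9, 40.4 and 40.6 FPKM with nanoparticles and 68.1, 66.5 and 65.8 FPKM with PBS (log2 fold change -0.69, limma adjusted p = 1.25e-08). Eif2d, known for roles in reinitiation and ribosome recycling, had 34.3, 31.6 and 33.5 FPKM with nanoparticles against 24.3, 25.4 and 24 FPKM with PBS (0.42, limma adjusted p = 6.22e-06).

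**Figure D2:**
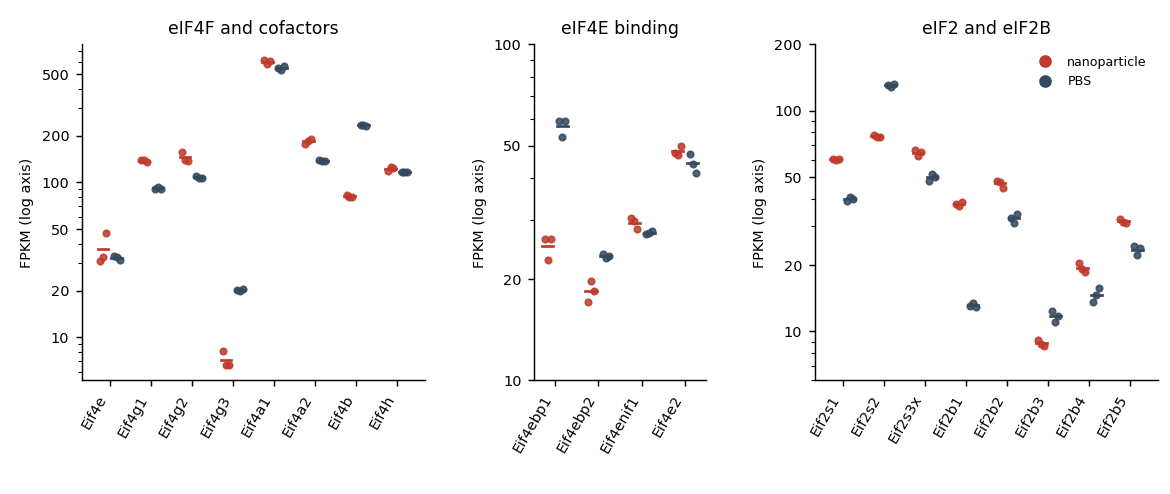
FPKM (y axis, log scale) of eIF4F and its cofactors, eIF4E-binding factors, and eIF2 with eIF2B in each library; red points are nanoparticle and dark points PBS libraries, and short lines are group means. Eif4b, Eif4g3, Eif4ebp1 and Eif2s2 lie lower with nanoparticles, and Eif4e has 1 nanoparticle library, at 47.1 FPKM, above all other libraries.

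eIF3, the largest initiation factor, scaffolds the scanning complex, and its 14 genes gave 8 rises, 4 falls and 2 that did not pass. In all 85.7% were called, near the 86.4% of all tested genes. Of the 14, 57.1% were higher and 28.6% lower, against 40.5% and 46.0% of all tested genes. All 3 subunits of the b-g-i module rose. Eif3b, its scaffold (ENSMUSG00000056076, chr5:140419328-140443360, + strand), had 164, 160 and 157 FPKM with nanoparticles against 69, 67.6 and 67.4 FPKM with PBS (log2 fold change 1.22, standard error 0.027, limma adjusted p = 2.06e-10). Eif3g, its RNA-binding subunit, had 161, 165 and 166 FPKM with nanoparticles against 85.6, 85.6 and 84.1 FPKM with PBS (0.94, limma adjusted p = 6.43e-10). Eif3i rose by 0.33, and was at 0.03 and not called once the trend of all tested genes with genomic span (an alternative added after the data were seen) was subtracted.

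The 8 subunits of the structural octamer split evenly, with 4 higher and 4 lower. Eif3e, also known as Int6 (ENSMUSG00000022336, chr15:43250058-43282719, - strand), had 118, 116 and 124 FPKM with nanoparticles and 272, 282 and 274 FPKM with PBS (log2 fold change -1.21, standard error 0.032, limma adjusted p = 5.68e-10). The nanoparticle mean was 0.431 of the PBS mean. Eif3h, an MPN-domain subunit, fell by 0.80, Eif3a, the scaffold of the complex, fell by 0.69, and Eif3m fell by 0.40 on the log2 scale. The other octamer subunits had log2 fold changes of 0.49 (Eif3c), 0.35 (Eif3k), 0.10 (Eif3l) and 0.08 (Eif3f). The Eif3f call was lost without nanoparticle library 2 or 3 and without PBS library 2 or 3. On the TPM scale Eif3f was at -0.07 and Eif3l turned lower (-0.06). With the span trend subtracted, Eif3f was called lower (-0.22), Eif3l (-0.05) was not called and Eif3h was at -0.17, still lower. Eif3d, a subunit able to bind the cap of some mRNAs, rose by 0.49. The loosely bound eIF3j is encoded by Eif3j1 and Eif3j2, which had log2 fold changes of 0.07 and -0.02 and did not pass (limma adjusted p = 0.17 and 0.675). Their values cannot be separated with confidence, since 90.8% of the 50-base words of Eif3j2 also occur in Eif3j1.

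Among the 12 eIF3 subunits other than eIF3j, the highest FPKM was 4.19 to 4.54 times the lowest in nanoparticle libraries and 4.75 to 4.93 times in PBS libraries. Eif3h and Eif3e, at 326 and 276 FPKM, were among the most abundant in PBS libraries and fell. Eif3b and Eif3g, at 68 and 85.1 FPKM, were among the least abundant and rose. Other subunits did not follow this order. Eif3l, at 279 FPKM with PBS, changed by 0.10 and Eif3f, at 68.8 FPKM, by 0.08. Eif3a and Eif3m, at 111 and 118 FPKM with PBS, fell. The coefficient of variation of the 12 group means was 42.2% with nanoparticles and 60.6% with PBS. Shared 50-base words came to 22% for Eif3e, 26.2% for Eif3h and 37.3% for Eif3m, all with transcripts listed under other genes.

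**Figure D3:**
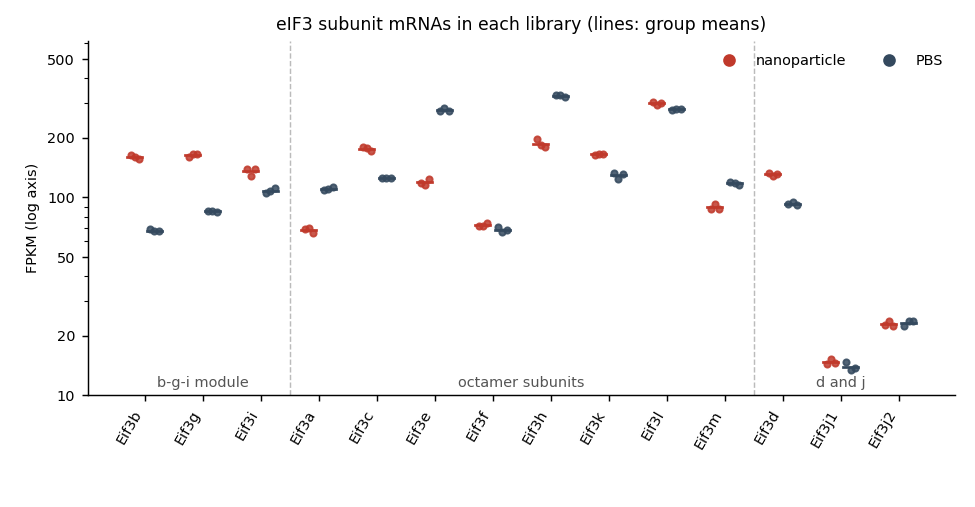
FPKM (y axis, log scale) of the 14 eIF3 genes in each library, nanoparticle in red and PBS in dark, with lines for group means and dashed lines between the b-g-i module, the octamer, and d with j. The b, g and i subunits are higher with nanoparticles, while a, e, h and m are lower.

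The tested eIF4A helicases, which unwind the 5′ end of the mRNA, were all called higher, by different amounts. Eif4a1, among the most abundant members, had 619, 579 and 603 FPKM with nanoparticles against 550, 533 and 562 FPKM with PBS (log2 fold change 0.13, limma adjusted p = 0.0034). On the TPM scale this call was lost, at -0.02, and 65.3% of its 50-base words occur in other transcripts, mostly those of a single pseudogene. With the span trend subtracted Eif4a1 was called lower, at -0.21. Eif4a2, its paralog, had 178, 186 and 191 FPKM with nanoparticles against 139, 137 and 138 FPKM with PBS (0.42). Eif4a3, a core protein of the exon junction complex more than an initiation helicase, had 106, 110 and 110 FPKM with nanoparticles against 72, 69.1 and 69.5 FPKM with PBS (0.62), with 24.4% of its 50-base words shared. The ratio of Eif4a2 to Eif4a1 averaged 0.309 ± 0.018 with nanoparticles and 0.252 ± 0.0058 with PBS (SD, n = 3 each).

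Eif4b, the RNA-binding cofactor that stimulates eIF4A, had the lowest log2 fold change of the 47 tested members on the log2(FPKM + 1) scale. It had 83.3, 80.4 and 80.6 FPKM with nanoparticles and 235, 236 and 232 FPKM with PBS, a fold of 0.348 between means (log2 fold change -1.51, standard error 0.025, limma adjusted p = 4.56e-11). The gene (ENSMUSG00000058655) lies at chr15:102073773-102097173 on the + strand. Eif4h, a related cofactor, had 119, 125 and 123 FPKM with nanoparticles against 117, 117 and 116 FPKM with PBS, a log2 fold change of 0.07 (limma adjusted p = 0.0328). That small rise was lost without any of 5 single libraries and on the TPM scale Eif4h was called lower, at -0.09.

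The cap-binding gene Eif4e did not pass. It had 30.9, 32.9 and 47.1 FPKM with nanoparticles and 33.5, 33.1 and 31.5 FPKM with PBS (log2 fold change 0.15, standard error 0.161, limma adjusted p = 0.422). The third nanoparticle library stood apart from the other 5, and without it the value was -0.04. Eif4e2, which encodes the repressive cap-binding protein 4EHP, had 47.4, 47 and 49.7 FPKM with nanoparticles against 47.2, 44 and 41.5 FPKM with PBS. The groups overlapped, and the call at 0.12 (limma adjusted p = 0.038) was lost without nanoparticle library 1 or 3 or PBS library 2 or 3.

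The eIF4E-binding proteins that compete with eIF4G for eIF4E fell. Eif4ebp1, the main mTORC1-regulated repressor (ENSMUSG00000031490, chr8:27260329-27276674, + strand), had 26.4, 22.9 and 26.3 FPKM with nanoparticles and 59, 53.1 and 59.1 FPKM with PBS (log2 fold change -1.15, standard error 0.062, limma adjusted p = 1.25e-07). Eif4ebp2 had 17.1, 19.8 and 18.5 FPKM with nanoparticles against 23.7, 23.2 and 23.5 FPKM with PBS (-0.33, limma adjusted p = 0.000166). In neither gene did the groups overlap. Eif4ebp3 was below the level tested, at 0.085, 0.0197 and 0.0396 FPKM with nanoparticles and 0.463, 0.527 and 0.338 FPKM with PBS, and 65.5% of its 50-base words occur in the transcript of another gene. Eif4enif1, which carries eIF4E into the nucleus and to P-bodies, had 30.4, 29.9 and 28.2 FPKM with nanoparticles against 27.2, 27.5 and 27.9 FPKM with PBS (0.10, limma adjusted p = 0.0337). That call was lost without nanoparticle library 1 or 2 or PBS library 1 or 2 and on the TPM scale.

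Per unit of Eif4e, Eif4ebp1 mRNA stood at 0.856, 0.698 and 0.557 in the nanoparticle libraries and 1.76, 1.6 and 1.88 in the PBS libraries. All nanoparticle ratios were under all PBS ratios. The exact two-sided permutation p was 0.1, the smallest that 3 against 3 libraries allow. With Eif4e taken as denominator, the third nanoparticle library gave the lowest ratio, and without it the log2 difference was -1.17 against -1.33 with all libraries.

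The eIF4G scaffolds, which bridge eIF4E, eIF4A and eIF3, gave 2 rises and 1 fall. Eif4g1 had 140, 139 and 136 FPKM with nanoparticles against 90.8, 93.7 and 90.8 FPKM with PBS (log2 fold change 0.59, standard error 0.026, limma adjusted p = 1.49e-08). Eif4g2, which encodes DAP5, a relative that lacks the eIF4E-binding site, had 158, 140 and 137 FPKM with nanoparticles against 110, 107 and 106 FPKM with PBS (0.42). Eif4g3, the paralog of Eif4g1, had 8.13, 6.62 and 6.66 FPKM with nanoparticles and 20.1, 20 and 20.5 FPKM with PBS (-1.39, standard error 0.070, limma adjusted p = 4.58e-08). Its ratio to Eif4g1 averaged 0.0515 ± 0.0059 with nanoparticles and 0.22 ± 0.0062 with PBS (SD, n = 3 each), a log2 difference of -2.10 with an exact permutation p of 0.1. Eif4g3 is also the longest member gene, spanning 215 kb at chr4:137993022-138208508. With the span trend subtracted it was at -0.13 and not called.

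Subunit joining factors split as well. Eif5, which triggers GTP hydrolysis by eIF2 at the start codon, had 192, 214 and 194 FPKM with nanoparticles against 120, 116 and 111 FPKM with PBS (log2 fold change 0.78, limma adjusted p = 1.97e-07). Eif5b, the GTPase that joins the large subunit, had 14.4, 14.9 and 13.7 FPKM with nanoparticles against 19.2, 19.7 and 19.7 FPKM with PBS (-0.43, limma adjusted p = 6.02e-06). With the span trend subtracted Eif5b was at -0.02 and not called. The ratio of Eif5b to Eif5 averaged 0.0716 ± 0.0029 with nanoparticles and 0.169 ± 0.0092 with PBS (SD, n = 3 each).

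Eif5a, whose product carries the modified lysine hypusine and acts in elongation and termination more than in initiation, was the most abundant member after treatment. It had 731, 754 and 743 FPKM with nanoparticles against 355, 341 and 361 FPKM with PBS, a fold of 2.11 between means (log2 fold change 1.07, standard error 0.028, limma adjusted p = 5.41e-10). The gene (ENSMUSG00000078812) lies at chr11:69916714-69921958 on the - strand. Its paralog Eif5a2 stayed at 2.2 to 2.54 FPKM with nanoparticles and 1.93 to 2.03 FPKM with PBS (0.19), a call lost without nanoparticle library 1 or 3 or PBS library 1 or 2. Eif6, which keeps free large subunits from joining, had 85.6, 90.8 and 87.4 FPKM with nanoparticles against 64.1, 64 and 69.3 FPKM with PBS (0.41, limma adjusted p = 3.88e-06).

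**Figure D4:**
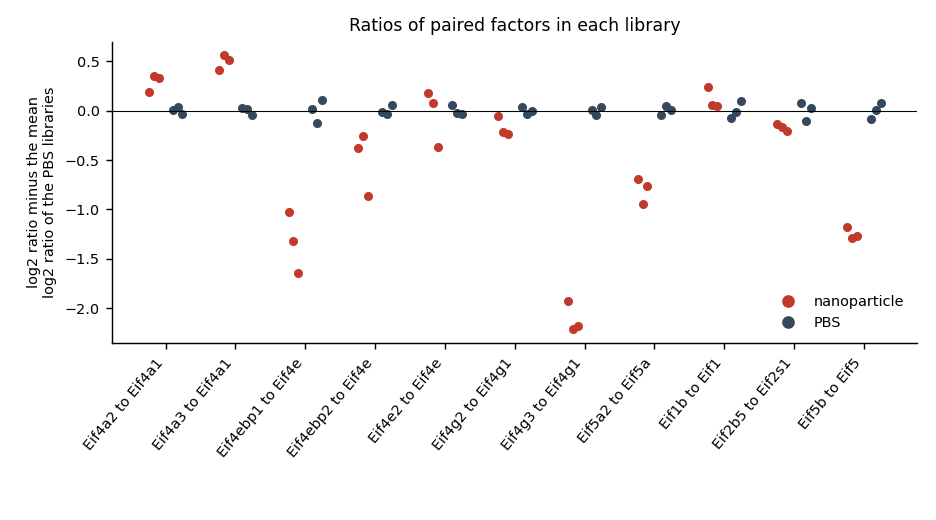
Log2 ratio of the FPKM of paired factors in each library, less the mean log2 ratio of the PBS libraries (y axis), with nanoparticle libraries in red and PBS libraries in dark. Eif4g3 to Eif4g1, Eif4ebp1 to Eif4e and Eif5b to Eif5 lie lowest with nanoparticles, and Eif4e2 to Eif4e and Eif1b to Eif1 overlap between groups.

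Of 11 such ratios, 9 did not overlap between groups and had the smallest possible p of 0.1 (Benjamini-Hochberg adjusted p = 0.122 over the 11 ratios). Libraries of the groups also did not overlap for 87.2% of all tested genes taken singly. The share for ratios of other gene pairs was not computed, so the count does not set these pairs apart. Eif4e2 to Eif4e (exact permutation p = 1) and Eif1b to Eif1 (exact permutation p = 0.3) overlapped. No ratio could pass the threshold in a design of this size.

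Higher members lay in shorter genes than lower members. Genomic span, from gene start to gene end in GENCODE M21, had a median of 11.1 kb over the 32 higher members and 30.6 kb over the 12 lower members. The same held over all tested genes, with medians of 14.1 and 43.8 kb. Of 15 members spanning under 10 kb, 14 rose and 0 fell, against 60.2% and 25.7% of all tested genes of that size. Of 23 members between 10 and 30 kb, 16 rose and 6 fell, against 51.8% and 32.1%. Of 9 members of 30 kb or more, 2 rose and 6 fell, against 19% and 70%. Across the 47 tested members Pearson's r of the log2 fold change with log10 span was -0.54 and Spearman's rho -0.48, close to -0.48 and -0.49 over 10836 tested genes. These are descriptions across genes that share the same 6 libraries.

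With the trend of all tested genes with span subtracted, 22 members were higher and 14 lower, where 42.5% and 41.4% of all tested genes were called so. Eif3b (1.15), Eif2b1 (1.16), Eif5a (0.74), Eif3g (0.61) and Eif4g1 (0.52) were still higher, and Eif4b (-1.60), Eif4ebp1 (-1.33), Eif3e (-1.14), Eif2s2 (-0.87) and Eif3a (-0.68) still lower. Of the falls, Eif4g3 (-0.13) and Eif5b (-0.02) no longer passed. Of the rises, Eif4e2 (0.08), Eif2b4 (0.04), Eif3i (0.03), Eif5a2 (0.02), Eif1b (-0.0005), Eif1ax (-0.04) and Eif3l (-0.05) no longer passed. Eif3j2, not called before, was lower (-0.35), Eif3h moved to -0.17, and Eif2b3 turned higher (0.15). Eif4a1 (-0.21), Eif3f (-0.22), Eif1 (-0.10) and Eif4h (-0.07) turned lower. This alternative was added after the data were seen. In all, 20 rises and 9 falls kept their call and direction in every alternative, this included.

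**Figure D5:**
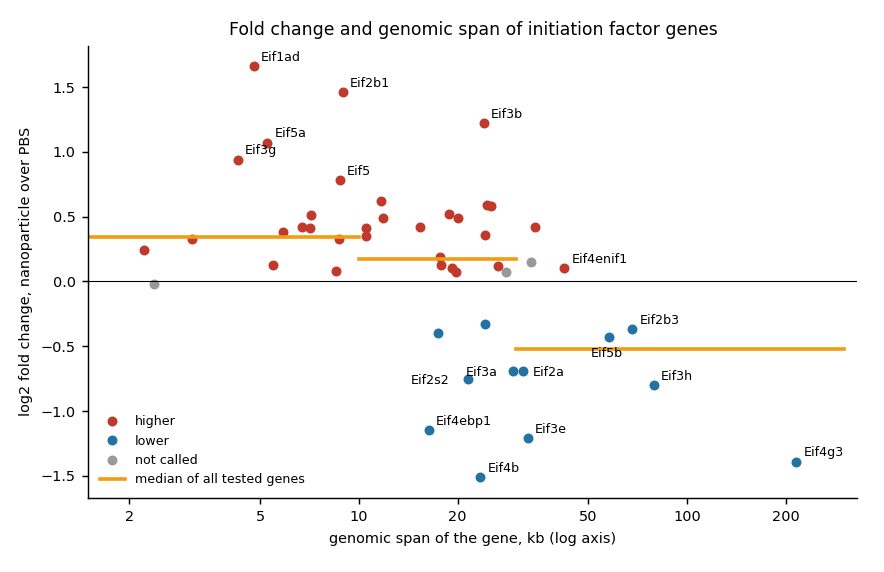
Log2 fold change (y axis, nanoparticle over PBS) of the 47 tested members against genomic span in kb (x axis, log scale); orange lines are the medians of all tested genes under 10 kb, from 10 to 30 kb and over 30 kb. Eif4b, Eif4ebp1 and Eif2s2 lie well below the line of their size class, and Eif1ad, Eif2b1 and Eif3b well above it.

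Companion genes of the pathway gave 31 rises and 22 falls among 66 tested of 69. These were 47% higher and 33.3% lower, against 40.5% and 46.0% of all tested genes. Counts of each list below are to be read against the same all-gene shares. Of 9 genes of the eIF2 kinases and phosphatase, 6 rose and 2 fell. Ppp1r15a, the stress-induced subunit (GADD34) that directs phosphatase to eIF2 alpha, had 108, 104 and 104 FPKM with nanoparticles against 10.5, 9.7 and 10.5 FPKM with PBS (log2 fold change 3.24, limma adjusted p = 7.2e-12). Eif2ak2, the interferon-induced kinase PKR, had 50.8, 51.7 and 49.7 FPKM with nanoparticles against 18.8, 18.8 and 18.2 FPKM with PBS (1.40), and Gcn1, the activator of the kinase GCN2, rose by 0.73. The GCN2 gene itself, Eif2ak4, fell by 0.59, and Eif2ak1 and Eif2ak3, the kinases HRI and PERK, changed by 0.77 and 0.37; these 3 were named after their values were seen. With the span trend subtracted, Eif2ak4 was at 0.11 and not called.

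Among 21 tested genes of mTORC1 and its control of eIF4E-binding proteins, 6 rose, 8 fell and 7 did not pass. Deptor, an inhibitor bound to mTOR, had 7.16, 6.96 and 7.12 FPKM with nanoparticles and 29.7, 28.9 and 29.1 FPKM with PBS (log2 fold change -1.90, limma adjusted p = 1.28e-10). Larp1, which binds TOP mRNAs, fell by 0.71 and Lamtor3, of the lysosomal Ragulator complex, rose by 0.68. With the span trend subtracted Deptor was at -0.86, Larp1 at -0.36 and Lamtor3 at 0.41, all still called. Rptor (-0.80) and Mtor (-0.14), counted among the falls, were then called higher, at 0.61 and 0.72. Rps6kb1 went from -0.26 to -0.01 and was not called, and the other falls of this list stayed lower. Rptor, Mtor and Rps6kb1 were named after their values were seen. Of 15 eIF4F partners, 6 rose and 7 fell, or 40% and 46.7%, near the shares of all tested genes. Gigyf2, the partner of 4EHP, fell by 1.39, Cyfip1, an eIF4E-binding repressor, fell by 0.75, and Paip2, an inhibitor of poly(A)-binding protein, rose by 0.66 on the log2 scale. With the span trend subtracted Cyfip1 was at -0.01 and not called, and Gigyf2 was at -0.45.

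Of 7 genes for eIF5 mimics, reinitiation and hypusine, 5 rose and 1 fell. Bzw1, an eIF5 mimic, rose by 0.83, Mcts2, a retrocopy of Mcts1, by 1.43 and Dohh, which completes hypusine on eIF5A, by 0.91. Dhps, the enzyme of the first hypusine step, changed by 0.88 (limma adjusted p = 3.66e-07) and was named after its value was seen. Genes listed by Eef1 and Eef2 symbols, not all of them elongation factors, gave 4 rises and 3 falls among 7 tested. Eef1b2 rose by 0.98, Eef1e1 by 0.87, and Eef2k, the kinase that inhibits eEF2, fell by 1.52. Eef2k was low, at 0.465, 0.417 and 0.56 FPKM with nanoparticles and 3, 3.59 and 3.18 FPKM with PBS. It passed the filter of 1 FPKM only through the PBS libraries, so its direction was not independent of the filter. The most abundant genes of this list, Eef1a1 (-0.14) and Eef2 (-0.13), were the other falls and were named after their values were seen. Termination and recycling genes gave 4 rises and 1 fall among 5 tested, with log2 fold changes of 0.49 for the recycling ATPase Abce1, 0.24 for the release factor Etf1 and -0.68 for Hbs1l, which was at -0.10 with the span trend subtracted. The mitochondrial initiation factors Mtif2 and Mtif3 had log2 fold changes of 0.08 and 0.07 and did not pass (limma adjusted p = 0.0962 and 0.499).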

How the data were processed

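Libraries were made from total RNA by a BGI mRNA protocol, per the labels' protocols. The authors deposited a single table of FPKM values, 1 column per library; its header names no unit, which was inferred from the values. STAR and featureCounts were used with builds GRCm38 and mm10, per the submitters' processing notes, with no version given; no source used here states what computed FPKM, whether strand was used or how reads that fit several genes were treated. Whole reads could not be recovered: among genes below 0.2 FPKM, the fullest 1% bin of between-library ratios held 1.77% of them. Depth is therefore unknown, and counting intervals are not given. The 701 features without a gene identifier, 0.631% to 0.67% of summed FPKM, were left out.

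Genes with at least 1 FPKM in 3 of 6 libraries (10863) were fitted on log2(FPKM + 1) in R 4.3.3 with the package limma 3.58.1 (with statmod 1.5.0, and the trend and robust settings but no replicate block). Two-sided p-values were Benjamini-Hochberg adjusted over all of them and called under 0.05. The test was checked on simulated data. Members and lists were chosen with earlier results of these data known. Values per library are given for the 3 called members with the largest change in each complex averaging at least 5 FPKM, the largest change against a complex's majority, the eIF4E-binding proteins and 7 core genes; companion genes are the 3 with the smallest adjusted p of each list. Values of Eif1 and Eif4e3 were added after they were seen. Spans came from GENCODE M21 (GRCm38) and promoters from RefSeq. Shared words were counted over all GENCODE M21 transcripts, from the longest protein-coding transcript of a gene. Summaries were made in Python 3.11.15 (pandas 2.3.3, numpy 2.4.6), and plots with matplotlib 3.10.9. The alternatives were a pseudocount of 0.1, no filter, a filter at 5 FPKM, a threshold of 0.01, TPM and median-of-ratios scaling, a replicate block, no robust setting, each library left out and, added after the data were seen, the trend with genomic span subtracted.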

Additional observations from a re-analysis of the deposited data

How the results depend on the processing

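Counts of members stayed within 1.5 times under every alternative: 22 to 36 were higher and 12 to 15 lower. With no filter on low values 36 were higher and 13 lower, with the TPM scale 24 and 15, with median-of-ratios scaling 33 and 12, and with a threshold of 0.01 27 and 12. Leaving out each library gave 27 to 29 higher and 12 lower members. Over all genes, 8445 were higher and 5227 lower with no filter on low values, against 4395 and 4996; the larger number of genes above 0 in the nanoparticle libraries moved with this, and its part was not tested. The replicate block gave 29 higher and 12 lower members. Correlations of deviations of same-numbered libraries were -0.014, -0.043 and 0.041, so no pairing by number was seen in the values. These values cannot tell whether the libraries were paired by design. On the TPM scale Eif4a1 was at -0.02, Eif4e2 at -0.03, Eif4enif1 at -0.05 and Eif4h at -0.09, each turned from a rise. Eif1ax (-0.02), Eif3l (-0.06) and Eif3f (-0.07) turned there too. With the span trend removed, Eif4a1 was at -0.21, Eif4h at -0.07, Eif1b at -0.0005 and Eif2b3 at 0.15. Eif3f (-0.22), Eif1 (-0.10), Eif3l (-0.05) and Eif1ax (-0.04) changed sign as well. The log2 ratio of Eif4e2 to Eif4e was -0.03 and ranged from -0.14 to 0.13 with libraries left out; 0.13 was the value without nanoparticle library 3. The cause was not tested. Depth is unknown, so how far it limits low members such as Eif4ebp3 and Eif5a2 cannot be stated.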
